A study of Mus musculus with 3 samples.

Results

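The cells described here were keratin-positive cells of mouse forelimb bud preparations, picked from all 3 single-cell libraries of the series. Barcodes entered when 1000 or more genes were detected in them and less than 10% of their unique molecular identifiers (UMIs) were mitochondrial; these are called kept barcodes. It was a member when Krt8 and Krt18 together reached 5 UMIs per 10000 (CP10K) and 3 sums each stayed under 1 CP10K: Epcam, Trp63 and Wnt6 (surface ectoderm), Cdh5, Pecam1 and Emcn (endothelium), and Tyrobp and Fcer1g (myeloid cells). That gave 277 of 10659 kept barcodes, out of 22501 deposited. Of the 277 cells, 123 (44.4%) came from control 1, 64 (23.1%) from mutant 1 and 90 (32.5%) from mutant 2. The comparison class was 4890 mesoderm cells with Krt8 and Krt18 under 1 CP10K. Of these, 496 had Gata4 and Gata6 at 1 CP10K or more and are called flank mesoderm. The other 4394 had only Prrx1, Tbx5 and Twist1 at that level and are called limb mesoderm.

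The study profiled forelimb buds of mouse embryos at E9.5 with the 10x Genomics 3' assay. The control library was Esco2fl/fl, with both Esco2 alleles floxed and no Cre transgene. The 2 mutant libraries were Esco2fl/fl;Prrx1-CreTg/0, in which Prrx1-Cre, active in limb mesenchyme, deletes the gene. Esco2 is the acetyltransferase that locks cohesin onto replicating chromosomes. The floxed alleles were thus common to all groups. Each library was a pool of 3 frozen samples of 2 limb buds, by the labels from 2 male samples and 1 female sample, and nothing in the labels says that the 2 mutant pools came from separate litters. The p-values below therefore measure only the spread between these libraries.

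Krt8 and Krt18 encode the paired type II and type I keratins of simple epithelia, which are the first intermediate filaments that an embryo makes. The coelomic epithelium is the mesodermal lining of the body cavity. It covers the lateral plate next to the limb field, sheds cells into the mesenchyme below by losing its epithelial state, and later becomes the mesothelium of the organs and the epicardium of the heart. Known markers of that lineage are the uroplakin Upk3b, the transcription factors Wt1 and Bnc1, and the sialomucin Podxl.

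The 3 libraries held 178159788 to 225032823 UMIs. The median keratin-positive cell had 76046 UMIs in control 1, 51284 in mutant 1 and 29181 in mutant 2, while the median mesoderm cell had 27742.5, 32366 and 48671. The order of the libraries by depth was thus reversed between the 2 classes, and levels are therefore given as CPM, counts scaled to the UMI total of the class in that library. The summed keratin-positive cells held 8266861, 3288156 and 2874133 UMIs. Scrublet called 4 of the 277 cells doublets, 1 in mutant 1 and 3 in mutant 2. The libraries shared 65 to 117 barcode sequences in pairs, and none of these was a keratin-positive cell in both. Limb mesoderm cells with RNA of Xist and none of Y-linked genes were 15.2%, 1.22% and 0.866% of those that could be called, in each library below 1 female sample in 3, and in the mutants far below it. Esco2, the targeted gene, stood in the keratin-positive cells at 26.5 CPM in control 1, 11.3 in mutant 1 and 23.7 in mutant 2. It was at 31.8, 23.7 and 22.0 CPM in limb mesoderm, and 3' counts do not report directly on the deleted part. The Cre transgene had 1 UMI in the keratin-positive cells of mutant 1 and 0 in those of mutant 2, and it was seen in 4.6% and 5.4% of limb mesoderm cells.

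Keratin-positive cells were more frequent in the control library than in either mutant library. They made up 4.06% of kept barcodes in control 1 (95% exact Clopper-Pearson interval 3.39 to 4.83), 2.00% in mutant 1 (1.54 to 2.54) and 2.03% in mutant 2 (1.64 to 2.49). The control interval did not overlap the mutant intervals, which cover counting error only. With the keratin gate at 10 CP10K the shares were 1.78%, 0.748% and 1.63%, so control 1 and mutant 2 then lay close together. There is 1 control library, so the difference between genotypes was not tested, and an exact permutation test of 1 library against 2 has only 3 arrangements and cannot reach 0.05. A share also moves with how much flank tissue each dissection took: flank mesoderm was 167 of 1204, 186 of 1309 and 143 of 2377 mesoderm cells, and its part in the share was not tested.

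**Figure D1:**
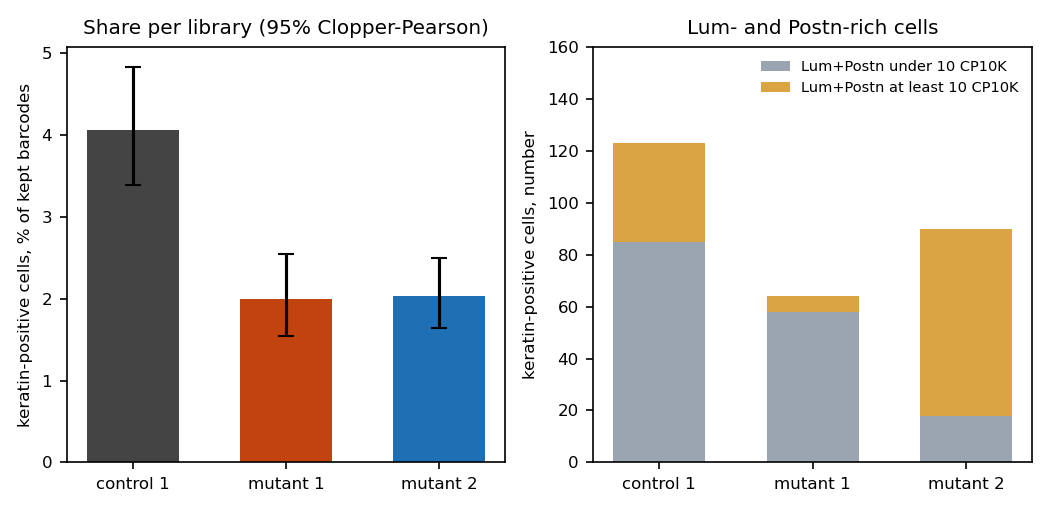
Left, keratin-positive cells as a percentage of kept barcodes in each library, with 95% Clopper-Pearson intervals: 4.06% in control 1 and 2.00% and 2.03% in the mutants. Right, numbers of these cells with Lum and Postn together at or above 10 CP10K and below it: 38 and 85 in control 1, 6 and 58 in mutant 1, 72 and 18 in mutant 2.

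The keratin genes chose the cells, so their levels are given as a description. Krt8 stood at 652, 624 and 964 CPM in control 1, mutant 1 and mutant 2, and Krt18 at 442, 404.5 and 556. The median cell had 9.49, 8.05 and 14.1 CP10K of both keratins in the same order, and the highest cell had 118, 32.1 and 68.4. The keratin sum ran highest in mutant 2 at the median and lowest in mutant 1. At the gate, 15, 15 and 4 members lay between 5 and 6 CP10K, and 23, 14 and 16 barcodes that passed the other gates lay between 4 and 5 and were left out. A UMI of Upk3b was seen in 60%, 66.7% and 100% of those just inside and in 52.2%, 71.4% and 50.0% of those just outside. In all, 587 kept barcodes reached the keratin level, and the 3 negative gates removed 310 of them.

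The keratin pair is encoded side by side on mouse chromosome 15 (GRCm38, GENCODE vM21). Krt8 lies on the minus strand at chr15:101996698-102004482 and Krt18 on the plus strand at chr15:102028180-102032027, with 23697 bases between them. Upk3b lies on the plus strand at chr5:136038496-136046487. Because the gate rests on the keratin pair and the cells carry Upk3b, the bases before these 3 gene starts are shown, 5′ to 3′ on the strand of the gene, from the RefSeq promoter table of GRCm38.p6, each ending at the last base before the GENCODE start. They are chr15:102004483-102004592 (minus strand) for Krt8, chr15:102027966-102028179 (plus) for Krt18 and chr5:136038246-136038495 (plus) for Upk3b. Capitals mark AGATAA, read by zinc finger factors such as the gate genes Gata4 and Gata6.
Krt8: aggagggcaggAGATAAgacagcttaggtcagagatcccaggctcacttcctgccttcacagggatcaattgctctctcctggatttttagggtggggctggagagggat
Krt18: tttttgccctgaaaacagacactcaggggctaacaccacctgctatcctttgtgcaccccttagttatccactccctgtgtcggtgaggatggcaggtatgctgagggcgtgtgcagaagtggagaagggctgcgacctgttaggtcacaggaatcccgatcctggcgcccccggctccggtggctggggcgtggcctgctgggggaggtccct
Upk3b: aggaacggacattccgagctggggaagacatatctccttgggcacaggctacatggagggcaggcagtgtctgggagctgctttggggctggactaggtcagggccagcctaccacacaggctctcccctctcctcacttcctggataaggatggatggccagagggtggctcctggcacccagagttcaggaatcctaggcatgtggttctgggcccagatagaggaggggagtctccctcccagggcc
In the 250 bases before each RefSeq start, 4 motifs were searched on both strands: TATAAA of core promoters, GGGCGG of Sp1-type sites, TGANTCA of sites for Jun and Fos, and AGATAA. In these 3 windows only the AGATAA before Krt8 matched, which 9.97% of 32536 distinct promoters hold; TATAAA was in 12.3%, GGGCGG in 33.0% and TGANTCA in 6.73%. A match is a description of letters, not of a bound site.

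The remaining gate genes show which mesoderm the cells resembled. Gata6, a GATA factor of visceral and lateral plate mesoderm, stood at 245, 337 and 239 CPM. Gata4, its paralogue, stood at 99.1 and 168 CPM in control 1 and mutant 1 and at 5.22 in mutant 2. The limb field factors were also detected: Tbx5, which starts the forelimb program, at 42.5, 66.9 and 52.5 CPM, Prrx1 at 65.8, 57.8 and 19.8, and Twist1 at 130, 119 and 41.8. By the thresholds set for mesoderm, 233 of the 277 cells (84.1%) passed the Gata4 and Gata6 sum, 174 (62.8%) the Prrx1, Tbx5 and Twist1 sum, and 21 neither. The cells were therefore mesodermal by these genes, with Gata4 nearly missing in mutant 2.

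For the genes that the gates did not use, UMIs were summed per library and class and the keratin-positive sum was compared with the mesoderm sum of the same library (edgeR quasi-likelihood test, library as a block, Benjamini-Hochberg adjustment). Tested were 6984 genes whose mean over the sums reached 20 CPM. Of these, 1194 (17.1%) were higher and 800 (11.5%) lower in keratin-positive cells at an adjusted p under 0.05, together 28.6%. The median log2 fold of all genes tested was 0.00, and 50.1% were positive. These genes are a separate measure from the gates, although in single cells they go together with them, so a call says that a gene goes with the keratin gate. A gene low in mesoderm could reach 20 CPM through the keratin-positive sums alone, and the reverse. The direction of its fold was then set in part by that filter, also in the list counts below. Without control 1, whose keratin-positive sum was the deepest, 477 were called higher and 231 lower. Against flank mesoderm alone, 7091 genes were tested, 1076 (15.2%) were higher and 1157 (16.3%) lower; 1469 of the 1994 main calls were called there in the same direction, and 43 had a fold of the other sign. Limb cells make up 4394 of the 4890 mesoderm cells, so folds and list counts against flank mesoderm are set beside many of the main ones.

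The markers of coelomic epithelium matched the label in part. Upk3b stood at 127, 128 and 137 CPM in control 1, mutant 1 and mutant 2, against 19.8, 18.2 and 24.8 in flank mesoderm and 1.70, 2.58 and 0.749 in limb mesoderm. Each keratin-positive sum was above each mesoderm sum, and the 3 lay close together. Upk3b, Wfdc2 and Igfbp2 were proposed as markers from these same data, so their folds of 5.36 (SE 0.36), 2.74 (SE 0.48) and 3.2 (SE 0.62) on the log2 scale are descriptions, with 2.74, 2.38 and 2.94 against flank mesoderm. Wfdc2, a secreted protease inhibitor, stood at 88.9, 42.0 and 216 CPM, and Igfbp2, a binding protein for insulin-like growth factors, at 122, 106 and 196. Both were lowest in mutant 1 and highest in mutant 2.

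A UMI of Upk3b was seen in 86 of 123, 48 of 64 and 66 of 90 keratin-positive cells (69.9%, 75% and 73.3%). Thinned to 5000 UMIs a cell, which left 107, 59 and 83 cells, the shares were 39.3%, 47.5% and 49.4%. Thinned flank mesoderm had 6.6%, 7.6% and 9.8% and limb mesoderm 0.6%, 1.2% and 0.5%. Erythroid cells, which should lack the gene, had 0%, 0.6% and 0% thinned and 1.5%, 1.6% and 0.4% before thinning. At equal depth the keratin-positive share of Upk3b was thus above the flank share in each library.

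Other markers of the coelomic lining gave a mixed picture. Of 15 genes in the coelomic epithelium and mesothelium list, 7 reached the level for testing and all 7 were higher, with a median log2 fold of 4.93. Against flank mesoderm 6 of 8 tested were higher and 0 lower (median 2.66). Upk3b, Wfdc2 and Igfbp2 are among them, so these counts rest in part on genes chosen from these data. Genes low in mesoderm, such as Krt19, reached the level for testing only through the keratin-positive sums. Their direction was thus largely set by that filter, and genes of the list below it, such as Aldh1a2, were not counted. Bnc1, a zinc finger factor of mesothelium, stood at 56.6, 58.7 and 72.0 CPM against 8.34, 11.4 and 8.19 in flank mesoderm, a log2 fold of 5.41 against all mesoderm (SE 0.46, adjusted p = 0.00487) and of 2.82 against flank. Podxl, the anti-adhesive sialomucin of apical surfaces, stood at 213, 149 and 230 CPM against 34.6, 34.8 and 33.1 in flank mesoderm (log2 fold 4.93, SE 0.44, adjusted p = 0.00517; 2.59 against flank). Krt19, a further simple-epithelial keratin, stood at 167, 175 and 202.5 CPM against 3.75, 10.7 and 1.96 in flank mesoderm (7.08, SE 0.72, adjusted p = 0.00635; 5.23 against flank). For these 3 genes the classes did not overlap in any library.

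Wt1, the zinc finger factor that marks coelomic epithelium and epicardium, did not follow them. It stood at 32.2, 79.4 and 12.2 CPM in keratin-positive cells and at 39.3, 52.7 and 44.4 in flank mesoderm, so that the classes overlapped. The log2 fold was 2.39 against all mesoderm (SE 0.30, adjusted p = 0.0106) and -0.32 against flank mesoderm alone (SE 0.42), so the first call rests on limb cells, which held 1.70 to 4.05 CPM. Aldh1a2, the retinoic acid synthase of this lining, stood at 15.7, 41.4 and 13.9 CPM against 48.9, 43.9 and 37.1 in flank mesoderm and was below the level for testing. Of the mesothelial surface genes, Msln had 0, 0 and 1 UMIs, Gpm6a 1 in each library and Muc16 none. The later mesothelial markers were thus at or near the limit of detection, with 3 UMIs taken as the most that a count of 0 allows.

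**Figure D2:**
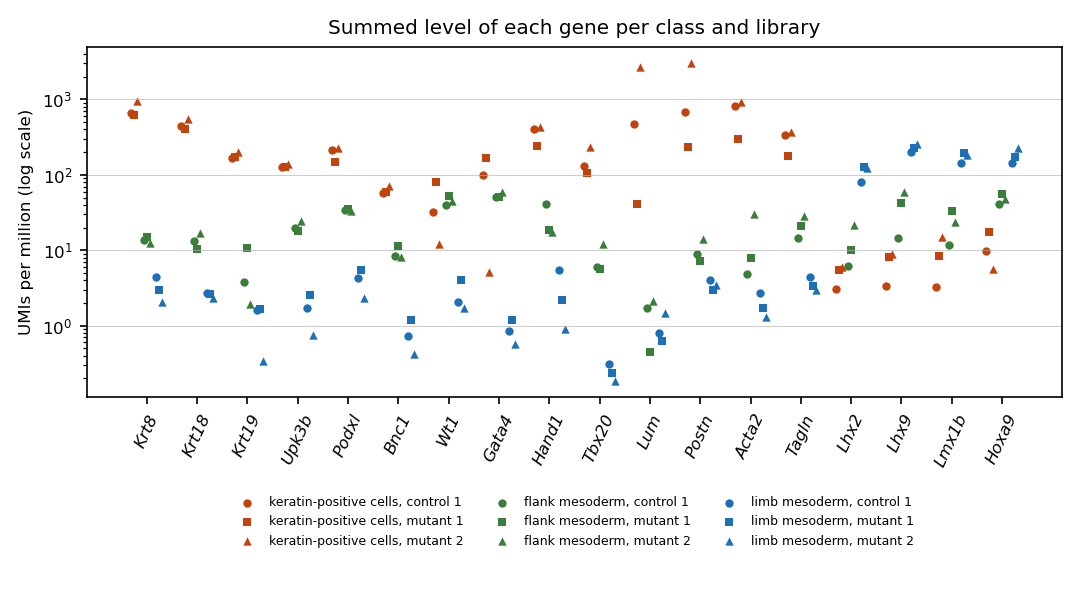
Summed level of 18 genes (log axis, CPM) in keratin-positive cells, flank mesoderm and limb mesoderm of each library, 1 point per class and library. Krt19, Upk3b, Podxl and Bnc1 separate the keratin-positive cells from both mesoderm classes, whereas Wt1 and Gata4 overlap flank mesoderm and Lum and Postn differ widely between the keratin-positive sums.

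Several of the genes with the highest folds among those at 100 CPM or more encode matrix or contractile proteins. Acta2, smooth muscle actin, stood at 826, 303 and 921 CPM in keratin-positive cells against 4.83, 7.87 and 30.1 in flank and 2.70, 1.71 and 1.31 in limb mesoderm (log2 fold 7.92, SE 0.40, adjusted p = 0.00185; 5.87 against flank). Tagln, an actin-binding protein of smooth muscle, stood at 337, 178 and 368 CPM (5.86, SE 0.35, adjusted p = 0.00197; 3.84 against flank). In both genes mutant 1 was lowest and every keratin-positive sum was far above mesoderm. Dcn and Lum, small leucine-rich proteoglycans that bind collagen, lie 47.0 kb apart on chromosome 10, at chr10:97479609-97518143 and chr10:97565128-97572703. Dcn stood at 80.1, 23.7 and 821 CPM, with at most 2.49 in either mesoderm class, a log2 fold of 9.61 (SE 0.98, adjusted p = 0.00649; 7.50 against flank). Lum stood at 474, 41.7 and 2725 CPM, with at most 2.14 in mesoderm, a log2 fold of 8.98 (SE 1.18, adjusted p = 0.0113; 9.12 against flank). Postn, the matrix protein periostin, stood at 674, 236 and 3048 CPM (7.66, SE 0.89, adjusted p = 0.00868; 6.48 against flank). In these 3 genes the keratin-positive libraries differed among themselves more than in Krt8, Krt18 or Krt19, with mutant 2 highest and mutant 1 lowest.

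The other genes of the naming rule with positive folds were mostly regulators of lateral plate and secreted proteins. Tbx20, a T-box factor of the heart and lateral plate, stood at 130, 106 and 233 CPM against 6.04, 5.6 and 11.9 in flank mesoderm (log2 fold 7.45, SE 0.40, adjusted p = 0.00185; 4.4 against flank). Hand1, a bHLH factor of extraembryonic and visceral mesoderm, stood at 411, 243 and 425 CPM against 41.4, 18.5 and 17.5 in flank (6.41, SE 0.67, adjusted p = 0.00683; 3.93 against flank). Pitx1, best known as a hindlimb selector, stood at 130, 86.7 and 90.8 CPM (7.16, SE 0.38, adjusted p = 0.00185; 5.14 against flank). These regulators were high in all 3 keratin-positive sums. The small heat shock protein Cryab stood at 91.1, 29.5 and 211 CPM (log2 fold 8.64; 7.25 against flank), the basement membrane protein Tinagl1 at 75.8, 42.3 and 189 (5.82; 4.05 against flank), and the guidance ligand Sema3e at 72.5, 6.39 and 302 (5.74, SE 1.16, adjusted p = 0.0268; 4.32 against flank). All 3 were again lowest in mutant 1 and highest in mutant 2. In the list of flank and visceral lateral plate mesoderm 3 of 11 genes were tested and 3 were higher, Hand1, Tbx20 and Hand2 (1.35, with 0.50 against flank, which missed the threshold there). In the epicardium list 3 of 8 were tested and 3 were higher, Tbx20, Hand2 and Wt1, and against flank mesoderm Tbx20 alone of 4.

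Limb identity genes led the lower side. Lhx9 and Lhx2, LIM homeodomain factors that relay signals from the apical ridge, stood in keratin-positive cells at 3.39, 8.21 and 9.05 CPM and at 3.02, 5.47 and 5.92 CPM. Limb mesoderm held 203, 226 and 256 CPM of Lhx9 (log2 fold -4.97, SE 0.27, adjusted p = 0.00185) and 80.1, 126 and 122 of Lhx2 (-4.33, SE 0.14, adjusted p = 0.00106). Lmx1b, which specifies the dorsal limb, stood at 3.27, 8.51 and 15.0 CPM against 143.5, 193 and 181 in limb mesoderm (-4.28, SE 0.37), and Hoxa9, a posterior Hox gene, at 9.92, 17.6 and 5.57 against 144, 175 and 224.5 (-3.84, SE 0.39). The keratin-positive cells were also below flank mesoderm in Lhx9 (-2.30) and Hoxa9 (-2.08). Ebf1, a helix-loop-helix factor of mesenchyme, separated them from flank mesoderm as well as from limb: 2.78, 5.78 and 4.52 CPM against 143, 176 and 132 in flank (-4.69, SE 0.21, adjusted p = 0.00185; -5.13 against flank). Gpc5 (-4.28), Cped1 (-4.22), the zinc finger genes Prdm16 (-3.78) and Mecom (-3.71) and the FGF antagonist Il17rd (-3.48) completed the lower genes named by the rule, and all were lower against flank too. In the limb mesenchyme list 12 of 14 genes were tested, 0 were higher and 7 lower (median -2.63): Hoxd10, Lhx9, Lhx2, Tbx15, Hoxa9, Hoxd9 and Fgf10. Against flank mesoderm 1 of 10 was higher and 5 lower (median -1.12).

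**Figure D3:**
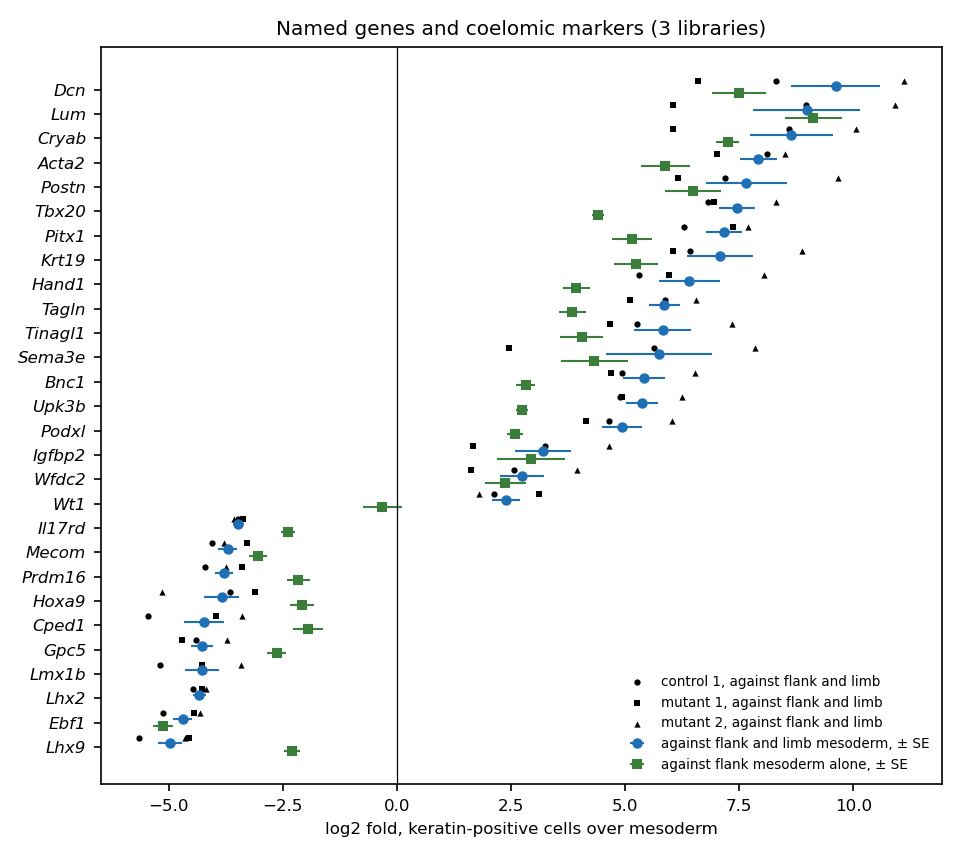
Log2 fold of keratin-positive cells over mesoderm for the genes of the naming rule and the coelomic markers. Blue circles with SE are folds against flank and limb mesoderm, green squares those against flank mesoderm alone, and black marks the 3 libraries; the folds against flank are smaller for most genes, and Wt1 moves from 2.39 to -0.32. Lhx2 and Lmx1b have no green square because they were below the level for testing there.

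Epithelial structure was described by 2 lists. Of 30 genes of cell junctions and apical polarity, 11 were tested, 9 were higher and 2 lower (median 2.30), and against flank mesoderm 8 were higher and 2 lower (median 0.96). Pard6b, a subunit of the apical polarity complex, stood at 40.4, 59.0 and 31.0 CPM (log2 fold 4.49, SE 0.15, adjusted p = 0.00106; 2.76 against flank). Ezr, which links apical membrane to actin, stood at 187, 157.5 and 195 CPM (4.09, SE 0.17; 3.47 against flank), and the desmosomal protein Dsp at 56.0, 115 and 129 (4.04, SE 0.24; 1.35 against flank). Crb2, an apical determinant, had a log2 fold of 3.08 (1.15 against flank) and Cdh3, P-cadherin, of 2.30, with 0.72 against flank, which missed the threshold there. The polarity scaffold Pard3 was lower (-0.65), a call lost without control 1 and without mutant 1, which each left a single lower gene in the list. Cdh1, E-cadherin, had 0, 0 and 14 UMIs, with Epcam, a gate gene, at 3, 4 and 6. The apical genes were therefore high in sums that held almost no E-cadherin RNA. Barcodes with Epcam, Trp63 and Wnt6 together at 1 CP10K or more had been left out by the gate. The part of that gate in the low E-cadherin level was not tested.

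Of 18 basement membrane genes, 13 were tested, 8 were higher and 1 lower (median 1.37), and against flank mesoderm 7 of 15 were higher and 3 lower (median 0.65). Col4a5 and Col4a6, neighbouring X-linked genes for collagen IV chains, stood at 254, 149 and 503 CPM and at 193, 116.5 and 385 CPM (log2 folds 3.99, SE 0.55, and 4.38, SE 0.61; 2.73 and 3.09 against flank). The linker Nid2 had a log2 fold of 1.86 (1.83 against flank) and Fras1 of 2.19, with 0.57 against flank, which missed the threshold there. Col4a1, the main collagen IV chain, was the lower gene, at 27.3, 34.1 and 44.9 CPM against 74.4, 105 and 159 in flank (-1.43, SE 0.13, adjusted p = 0.00557; -1.54 against flank). The collagen IV genes thus moved in opposite directions.

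Mesenchymal genes were higher as well. In the list of mesenchymal state and epithelial-mesenchymal transition, 18 of 19 genes were tested, 12 were higher and 1 lower (median 2.12), and against flank mesoderm 9 were higher and 2 lower (median 1.02). Col1a1, fibrillar collagen, stood at 1363, 377 and 4916 CPM (log2 fold 5.47, SE 1.03, adjusted p = 0.0230; 4.08 against flank), Sparc, a collagen-binding matrix protein, at 870, 480.5 and 2905 (4.57, SE 0.76; 2.55 against flank), and Vim, the intermediate filament of mesenchyme, at 688, 501.5 and 1139 (2.78, SE 0.28; 2.01 against flank). Mutant 2 was highest and mutant 1 lowest in each. Snai2, a repressor of E-cadherin, was higher (2.26; 1.34 against flank) and its relative Snai1 lower (-2.03; -1.42 against flank). Keratins, vimentin and collagens were therefore raised in the same sums, which by itself does not show that single cells held all of them. A UMI of Col1a1 was seen in 80.5%, 90.6% and 90% of the keratin-positive cells, each of which had passed the keratin gate. Vim was not counted cell by cell.

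In the list of Hippo targets and actin contractility, 19 of 21 names were in the files, 15 were tested, 13 were higher and 0 lower (median 2.98). Without control 1 only 8 were called, and against flank mesoderm 9 were higher and 1 lower. Beside Acta2 and Tagln, the tropomyosin Tpm1 stood at 1652, 1452 and 1275 CPM (log2 fold 2.98, SE 0.13, adjusted p = 0.00185), the calcium-binding partner proteins Anxa2 and S100a10 had folds of 5.50 and 3.66, and the myosin light chain Myl9 of 3.97. Against flank mesoderm these 4 folds were 1.76, 4.09, 3.08 and 2.57. Tpm1 was even across the libraries, unlike Acta2.

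Signalling genes are given by pathway. Among all genes tested 17.1% were higher and 11.5% lower against all mesoderm, and 15.2% and 16.3% against flank mesoderm. Several list counts lay near these shares and say nothing particular about their pathway. They were 2 of 15 lower for BMP, 1 of 7 higher for Hedgehog, 2 of 10 higher for retinoic acid, and 2 of 13 higher for WNT against flank. In the BMP list 15 of 19 were tested, 5 were higher and 2 lower (median -0.01); without control 1, 3 were higher. Against flank mesoderm 3 of 14 were higher and 4 lower (median -0.44), the latter Bmp5, Smad6, Bmpr1a and Bmpr1b. These 2 counts are too close to give a direction. The ligand Bmp2 stood at 122, 23.4 and 101 CPM against 1.57, 0.757 and 1.43 in flank mesoderm (log2 fold 5.19, SE 0.52, adjusted p = 0.00618; 6.04 against flank). Bmp4 was higher by 1.08, a call lost without control 1, and Bmp5 by 1.83, with -0.39 against flank mesoderm. The ligand Bmp7 (-2.47) and the receptor Bmpr1b (-2.50) were lower. Keratin-positive cells were thus rich in Bmp2, with the receptor gene Bmpr1b low.

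In the WNT list 12 of 20 genes were tested, 4 were higher and 3 lower (median 0.21). Against flank mesoderm 2 of 13 were higher and 4 lower (median -0.13), the latter Sfrp2, Lef1, Dkk1 and Rspo2. The antagonist Dkk2 stood at 429, 77.6 and 784 CPM (log2 fold 4.03, SE 0.84, adjusted p = 0.0283; 2.31 against flank) and the ligand Wnt2 at 179.5, 218 and 196 (3.68, SE 0.37; 1.07 against flank). The antagonist Sfrp1 had a fold of 2.05, with -0.02 against flank mesoderm. The nuclear effector Lef1 stood at 56.7, 65.7 and 42.1 CPM against 390, 395 and 278 in flank (-2.91, SE 0.13, adjusted p = 0.00185), and Rspo2, which amplifies WNT signals, had a fold of -1.95, with -3.59 against flank.

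The FGF list had 7 of 14 genes tested, 0 higher and 6 lower (median -1.80), and against flank mesoderm 5 of 6 were lower. Fgf10, the mesodermal ligand that starts limb outgrowth, stood at 33.6, 91.2 and 22.3 CPM against 144, 202 and 165 in flank (-1.80, SE 0.33, adjusted p = 0.0222). The FGF response genes Etv5 (-3.71), Il17rd (-3.48) and Dusp6 (-3.21) were lowest. In the Hedgehog list 7 of 12 were tested, 1 was higher (the co-receptor Gas1, 1.08, a call lost without control 1) and 3 lower, among them the transcription factor Gli3 (-1.52); against flank mesoderm the counts were also 1 and 3. Fgf10 was highest in mutant 1, and each keratin-positive sum stayed below the flank sum of its library.

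In the retinoic acid list 10 of 17 were tested, 2 were higher and 4 lower (median -0.18), and without control 1 these counts were 1 and 1. Against flank mesoderm 1 of 11 was higher and 5 lower (median -0.72). The degrading enzyme Cyp26a1 stood at 39.3, 21.6 and 158 CPM, with at most 1.67 in either mesoderm class (log2 fold 7.66, SE 0.91, adjusted p = 0.00905; 5.55 against flank). The receptor Rara was higher by 0.69, with 0.32 against flank, which missed the threshold there. The binding proteins Crabp2 (-3.02) and Crabp1 (-1.78) and the retinol dehydrogenase Rdh10 (-1.19) were lower, and the calls of Rara, Crabp1 and Rdh10 were lost without control 1. Of 9 insulin-like growth factor genes tested, 3 were higher and 0 lower: Igfbp2, Igfbp5 (3.16) and the clearance receptor Igf2r (1.23, with 0.19 against flank). Against flank mesoderm 3 of 10 were higher, Igfbp2, Igfbp5 and Igf2, and 3 lower, Igf2bp3, Igf2bp2 and Igfbp4 (median -0.27). Cyp26a1 was thus the retinoic acid gene with a large positive fold, and the genes of synthesis and binding named here were lower.

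Genes of the cell cycle were examined by 2 lists. Of 20 S-phase genes, all tested, 0 were higher and 5 lower (median -0.32), among them Ccne1 (-1.57), Rrm2 (-1.11) and Pcna (-0.78), and without control 1 a single gene was called. Against flank mesoderm 1 was higher and 2 lower. Of 20 genes of G2 and mitosis, 1 was higher, Nusap1 (0.62), which lost its call without control 1 and without mutant 1, while 5 genes were called without mutant 2. Against flank mesoderm 1 was higher, Birc5, and 1 lower, Kif11. Of 15 genes of cohesin and its establishment, 1 was lower, Pds5a (-0.60), and it was not called without control 1. Against flank mesoderm 3 were lower, Stag1, Hdac8 and Pds5a. The 5 of 20 S-phase genes were above the background of 11.5% lower, and the other shares against all mesoderm were under their background. Of 3 immediate early genes tested, which respond to tissue dissociation, 1 was higher (Jun, 2.26) and 1 lower (Ier2, -1.97). In the list of complement and secreted factors 0 of 3 tested genes were called, and Ptn was lower against flank mesoderm.

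Markers of other cell types were examined in the same sums. The lists of gut endoderm, visceral and yolk sac endoderm, notochord, nephric duct and myeloid cells had no gene at the level for testing, and their summed levels were 1.52 to 65.8 CPM. The gut factors Foxa2 and Sox17, the yolk sac gene Afp and the notochord gene T were at 0 UMIs in all 3 libraries. In the surface ectoderm list, with sums of 25.9 to 41.1 CPM, 1 gene was tested, Tfap2c, and it was lower. In the endothelial list (sums 207, 138 and 356 CPM against 249, 293 and 384 in flank) 2 of 10 were tested and both were higher, Tek (4.53) and Egfl7 (1.34), while Tie1, Cldn5 and Plvap stayed at or under 1.09 CPM. Tek is the angiopoietin receptor. Against flank mesoderm 5 endothelial genes were tested, Tek alone was higher (2.39) and 2 were lower, and Cdh5, Pecam1 and Emcn were held low by the gate. In the neural crest list Ets1 was the only gene tested and was lower, and in the myogenic list the 1 gene tested was not called. In the cardiomyocyte list Tnni1, slow troponin I, was the only gene tested and was higher (3.27), with Myh6 and Myh7 at 0. The haemoglobin list summed to 438, 3834 and 543 CPM in keratin-positive cells, with 1 of 5 tested genes lower, and its level in mutant 1 was near that of limb mesoderm.

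The amnion and allantois list stood out by level: 4 of 9 genes were tested and 4 were higher, Acta2, Postn, Tagln and Ahnak, a large scaffold protein (4.99). Genes low in mesoderm, such as Acta2, reached the level for testing only through the keratin-positive sums, so this count was largely set by the filter. Wnt6, also in the list, was held low by the gate and left out of the test. The sum of the list without Wnt6 was 2494, 1214 and 5222 CPM in keratin-positive cells against 118, 130 and 165 in flank mesoderm. Gabrp, a further gene of that list, had 0, 0 and 38 UMIs, and Hoxa13, which marks allantois, had 0 in each. The label of coelomic epithelium went with the levels of Bnc1, Podxl and Krt19 and with the detection of Lrrn4 and Upk1b. Upk3b, Wfdc2 and Igfbp2 were also high, but as markers proposed from these same data they are not counted for the label. In the sums of all keratin-positive cells, the levels of Wt1, Aldh1a2, Msln, Gpm6a and Muc16 went against it. Wt1 and Aldh1a2 differed within these cells and were lower in those rich in Lum and Postn, as described below. The cells are therefore called keratin-positive here and given no cell type.

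The keratin-positive cells were not uniform. A division at 10 CP10K of Lum and Postn together was chosen after the values were seen, so it is described without a test. It put 38 of 123 cells of control 1 (30.9%), 6 of 64 of mutant 1 (9.38%) and 72 of 90 of mutant 2 (80.0%) on the matrix-rich side, 116 cells in all, leaving 161. Between 5 and 20 CP10K lay 14, 13 and 1 cells. Among mesoderm cells, which were chosen for keratins under 1 CP10K, 0, 0 and 2 reached the same level. Among all kept barcodes outside the keratin-positive cells 21, 5 and 14 reached it, so the level was not confined to these cells. Of the keratin-positive cells, those of mutant 2 were thus mostly matrix-rich and those of mutant 1 mostly the others, with the control between them.

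**Figure D4:**
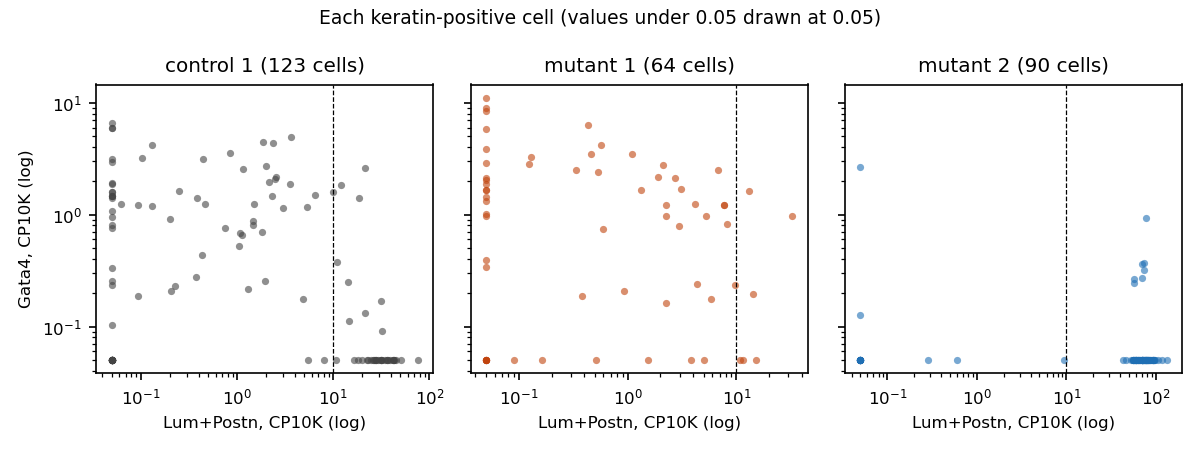
Gata4 against the sum of Lum and Postn in each keratin-positive cell (both CP10K, log axes, values under 0.05 drawn at 0.05), 1 panel per library, with the division at 10 CP10K dashed. Of the 116 matrix-rich cells 6 had Gata4 at 0.5 CP10K or more, against 89 of the 161 others.

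Gata4 at 0.5 CP10K or more was found in 3, 2 and 1 matrix-rich cells and in 50, 38 and 1 of the others. In summed levels Gata4 stood at 17.8, 63.8 and 3.87 CPM in matrix-rich cells and at 147, 175 and 10.9 in the others. Wt1 stood at 4.87, 54.7 and 6.03 CPM in matrix-rich cells and at 48.4, 81.1 and 38.2 in the others. Aldh1a2 followed the same order, at 0.649, 9.11 and 0.430 CPM against 24.7, 43.7 and 70.9. The summed levels of the classical coelomic factors were thus lower on the matrix-rich side in each library, and least so in mutant 1, where that side is only 6 cells. For Gata4 in mutant 2 this order rests mainly on 1 cell of the 18 others, at 2.66 CP10K, so it says little there. Wt1 in the others was above flank mesoderm in control 1 and mutant 1 and below it in mutant 2. Aldh1a2 in the others was below flank mesoderm in control 1, close to it in mutant 1 and above it in mutant 2.

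Other genes ran the opposite way, the same way or did not divide. Col4a6 stood at 391, 437 and 475 CPM in matrix-rich cells against 75.4, 93.5 and 5.45 in the others, Tek at 253, 305 and 243 against 43.2, 57.7 and 1.82, and Bmp2 at 292, 63.8 and 124 against 21.6, 20.5 and 0. The epithelial cadherin Cdh3 ran the same way as Gata4, at 17.2, 36.5 and 18.1 CPM against 112, 124.5 and 143.5. Crabp1, at 25.3, 54.7 and 13.8 against 309, 388 and 532, went with Cdh3. Upk3b, in contrast, was detected on both sides, in 84.2%, 83.3% and 77.8% of matrix-rich cells and 63.5%, 74.1% and 55.6% of the others, and Krt8 stood at 812, 765 and 1023 CPM against 557, 614 and 714. Median depth was 78357, 40722.5 and 29954 UMIs in matrix-rich cells and 71917, 52533.5 and 15708 in the others, so in mutant 2 the others were shallow. These genes were named after their values were seen.

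A further 6 cells, 2 in control 1 and 4 in mutant 2, had Krt7 and the steroidogenic or trophoblast genes Cyp11a1, Star and Plac8 together at 5 CP10K or more. This sum was also chosen after seeing the values. A cell could reach it on a single gene, so the 6 cells need not hold the same genes. A single control cell held 125 of the 129 Krt7 UMIs of control 1 and 87 of the 108 Star UMIs. The placental hormone genes Prl2c3, Prl7a1 and Prl3d1 had 512, 371 and 191 UMIs in control 1, and 1 cell held 511, 371 and 191 of them. They belong to a family of similar genes between which reads can be shared, so the split among them is uncertain. Without the 6 cells, 1117 genes were higher and 850 lower.

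The mutant cells could be compared with the control cells only as values, because there is 1 control library. Of 10753 genes, 139 (1.29%) were at least 4 times higher in mutant 2 than in control 1 with Poisson 95% intervals apart, and 203 (1.89%) were as much lower. The largest on the higher side were Gabrp, a GABA receptor subunit (0, 0 and 38 UMIs in control 1, mutant 1 and mutant 2), Cyct (0, 0 and 21), Ppl, the plakin periplakin (2, 1 and 50), Rhoh (2, 0 and 25), Nkain4 (41, 5 and 323) and the chloride channel Ano1 (6, 7 and 43). In each of them mutant 1 had 0 to 7 UMIs, so the high level was that of the mutant 2 library and not of both mutants. On the lower side stood Phlda2, an imprinted growth regulator, with 1350, 462 and 1 UMIs in 75, 39 and 1 cells; flank mesoderm held 12.6, 9.99 and 16.6 CPM of it. The other 5, Prl2c3, Prl7a1, Prl3d1, Rhox6 and Rhox9, were the genes of the single control cell above. Beside these values stands the share of matrix-rich cells, 30.9%, 9.38% and 80.0%, whose part in them was not tested.

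Of the p53 target genes, 6 named with earlier results of these data known are given beside the mesoderm of the same libraries. Limb mesoderm held more p53 target RNA in the mutants: Cdkn1a, the cell cycle inhibitor p21, stood there at 2.21, 69.9 and 65.5 CPM in control 1, mutant 1 and mutant 2. Flank mesoderm had 0.725, 25.7 and 40.8 CPM, and the keratin-positive cells 13.5, 10.3 and 2.44 (112, 34 and 7 UMIs). In the keratin-positive cells the mutant sums were thus not above the control sum, although the control value rests on 12 cells, 1 of which held 71 of the 112 UMIs. In mutant 1 a single cell held 17 of the 34 UMIs.

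Ano3, an anoctamin, stood in keratin-positive cells at 17.9, 14.6 and 1.74 CPM against 0.757, 81.5 and 57.6 in limb mesoderm. Ccng1, cyclin G1, stood at 27.0, 20.7 and 23.7 CPM against 6.58, 47.1 and 40.8, and Trp53inp1 at 3.87, 5.78 and 4.52 against 0.981, 19.6 and 16.4. Mdm2, the ubiquitin ligase that degrades p53, stood at 46.2, 45.6 and 43.1 CPM against 41.9, 96.2 and 80.9. Phlda3, an inhibitor of Akt, stood at 31.3, 34.4 and 14.3 CPM against 14.2, 44.1 and 28.5. In these 6 genes the keratin-positive level was above that of flank and limb mesoderm summed together in control 1 and below it in both mutants. The difference in direction was not tested, since there is 1 control library. Of the p53 target list, 13 of 28 genes were tested, 1 was higher and 0 lower (median -0.29), and 2 were lower without control 1. Against flank mesoderm 1 of 12 was higher and 1 lower, Polk. The gene called was Fas, the death receptor, at 46.6, 42.9 and 55.3 CPM against 3.02, 6.51 and 3.38 in flank mesoderm (log2 fold 4.05, SE 0.66, adjusted p = 0.0176; 3.59 against flank), and it was high in control and mutants alike.

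**Figure D5:**
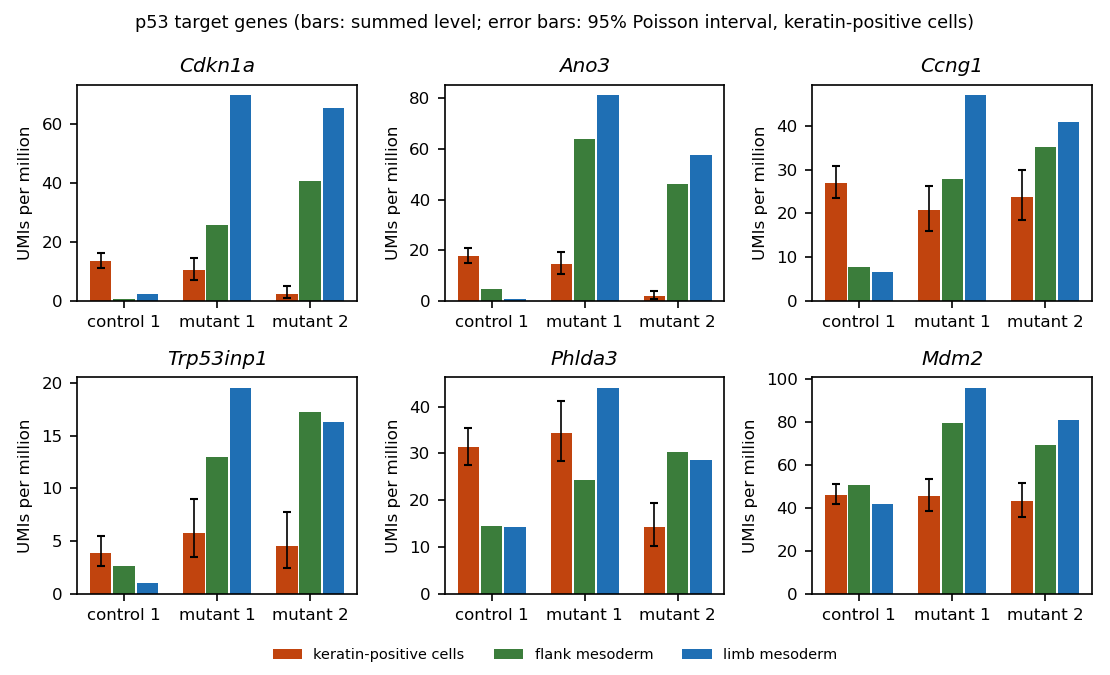
Summed level of 6 p53 target genes (CPM, linear axes from 0) in keratin-positive cells, flank mesoderm and limb mesoderm of each library; bars on keratin-positive cells are 95% Poisson intervals, which cover counting error only. Both mesoderm classes are higher in the mutants than in control 1 for each gene; of the keratin-positive cells that holds for Trp53inp1 alone, at 3.87, 5.78 and 4.52 CPM.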

How the data were processed

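Single-cell 3' RNA libraries of mouse E9.5 forelimb buds were analysed, 1 control and 2 mutant. The authors deposited 1 filtered matrix of UMI counts per library, whole numbers per gene and barcode with no normalization. They were made with Cell Ranger 7.0.0, per the file headers; the submitters' processing notes name Seurat 4.0.0 and the build mm10. No deposited cell annotation was used.

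Barcodes were filtered and gated as stated in the report, with Python 3.11.15, numpy 2.4.6, scipy 1.17.1, pandas 2.3.3 and scanpy 1.11.5. Doublets were marked by Scrublet (expected rate 0.06) and left in. UMI counts were summed per library and class, 2 sums for each of 3 libraries, and fitted with edgeR 4.0.16 (R 4.3.3): quasi-likelihood F test, TMM factors, library as a block, 2 residual degrees of freedom. The 15 gate genes stayed in the sums and were left out of the test. Genes called had a Benjamini-Hochberg adjusted p under 0.05. Log2 folds and SEs are those of this fit, and CPM values are unscaled by TMM. The script was tested on simulated data. DESeq2 1.42.0 was an alternative. Shares have 95% Clopper-Pearson intervals and CPM values 95% Poisson intervals, both for counting error only; for a count of 0, 3 UMIs were taken as the limit. Figures were drawn with matplotlib 3.10.9.

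Genes named were, among those called with 1 sign in all 3 libraries and at least 100 CPM in the higher class, the 12 with the highest and the 10 with the lowest fold, leaving out unnamed and ribosomal genes; of each list, the 4 highest and 2 lowest that a description needed; and, for mutant 2 against control 1, the 6 largest in each direction with at least 20 UMIs. Members and lists were chosen with earlier results of these data known. Positions are from GENCODE vM21 (29 of 29 found) and promoter bases from the RefSeq table of GRCm38.p6. The values of 1 gene that the naming rule covers are not reported here.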

Additional observations from a re-analysis of the deposited data

Results flagged for a closer look

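Of 93 genes compared, 6 p53 targets differed in direction between control and mutant libraries: the log2 ratio of CPM in keratin-positive cells to CPM in flank and limb mesoderm was positive in control 1 and negative in mutant 1 and mutant 2. The difference was not tested, because there is 1 control library. The ratios of Cdkn1a were 2.76, -2.63 and -4.62 in control 1, mutant 1 and mutant 2, and those of Ano3 were 3.77, -2.43 and -4.90. For Ccng1 they were 2.00, -1.11 and -0.77, and for Trp53inp1 they were 1.67, -1.67 and -1.81. Phlda3 had 1.14, -0.28 and -0.99, and Mdm2 had 0.10, -1.04 and -0.89. In the keratin-positive cells of control 1 a single cell held 71 of the 112 Cdkn1a UMIs. These 6 genes were listed for examination with earlier results of these data known. Of the 93 genes, 86 had been called between the classes, and those named for the largest folds were required to have 1 sign in all 3 libraries. The rest were these 6 genes and Esco2, so the 93 are no neutral background for them.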

How the results depend on the processing

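The count of genes called depended on which genes were tested and on the libraries. With a mean of at least 50 CPM, 694 genes were higher and 430 lower. With no minimum the counts were 1859 and 1993, and with at least 5 CPM 1234 were lower. Leaving out 1 library in turn gave 477 to 1213 higher and 231 to 936 lower, with the low ends without control 1, where 2 libraries and 1 residual degree of freedom remain. DESeq2 called 1436 higher and 1114 lower. Thinned to 5000 UMIs a cell, 911 were higher and 650 lower. Without the library as a replicate block, 1129 were higher and 698 lower. For the mutants against the control no paired analysis was possible because the label of the control library carries no replicate number, and there is 1 control library.

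The shares moved with the gates. With the keratin gate at 3 CP10K they were 5.68%, 3.3% and 2.85% in control 1, mutant 1 and mutant 2, and at 10 CP10K they were 1.78%, 0.748% and 1.63%. With the negative gates at 0 UMIs they were 1.92%, 1.15% and 1.29%, and among cells with a UMI of Upk3b 2.84%, 1.5% and 1.49%. With at least 500 genes the control 1 share was 4.87%. In each of these settings that changed all 3 shares, control 1 was highest.

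Of 86 genes with a fold, 66 kept their direction and their call in each of 22 settings that gave a value, apart from 34 gene and setting pairs that gave none. Against flank mesoderm alone Wt1 (-0.32), Bmp5 (-0.39) and Sfrp1 (-0.016) changed sign. Without control 1, 12 lost their call: Bmp4, Crabp1, Gas1, Hoxb8, Igf2r, Nusap1, Pard3, Pcna, Pds5a, Rara, Rdh10 and Rrm2. Low counts limit mutant 1 and mutant 2, whose keratin-positive sums held 3288156 and 2874133 UMIs against 8266861 in control 1.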

Other observations

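By the labels each library pooled male and female samples, and Xist, which female cells transcribe from 1 X chromosome, was compared with Y-linked genes in cells of at least 10000 UMIs; a cell was called with at least 2 UMIs of Xist or of the Y-linked genes and none of the other. Cells that held Xist but lacked Y-linked RNA numbered 0 of 91, 0 of 54 and 0 of 74 keratin-positive cells that could be called in control 1, mutant 1 and mutant 2. A count of 0 allows shares of up to 3.3%, 5.56% and 4.05% of the cells called. It does not mean that Xist RNA was absent. Of 102 keratin-positive cells of control 1 with enough UMIs, 11 could not be called, and shallower cells were left out. In the sums of all keratin-positive cells Xist passed the 20 UMI minimum, with a CPM ratio of mutant 2 to control 1 of 0.0182. In flank mesoderm they numbered 20 of 108 (18.5%), 5 of 150 (3.33%) and 1 of 115 (0.870%), and in limb mesoderm 82 of 538 (15.2%), 11 of 904 (1.22%) and 15 of 1733 (0.866%). The mesoderm shares of the mutants were far below the 1 female sample in 3 that the labels give. The labels count samples and not cells, and how many cells each sample gave is not known. Whether these shares bear on the label was therefore not tested. In control 1 the keratin-positive cells were below both mesoderm classes in the share of called cells with Xist and no Y-linked RNA.

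Of genes outside the naming rule, chosen after their values were seen, Hoxc9 had 70, 55 and 0 UMIs in keratin-positive cells of control 1, mutant 1 and mutant 2, the guidance ligand Sema3d 53, 10 and 0, and the vasoactive peptide gene Adm 50, 27 and 0.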
